A study of Rattus norvegicus with 8 samples.

Results

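The genes described here are 9 chemokine genes of the rat: Cxcl1, Cxcl2, Cxcl9, Cxcl10, Cxcl12, Cxcl13, Cxcl14 and Cxcl16 of the CXC class and Cx3cl1 of the CX3C class. They were taken by name, as the genes whose transcript records are read by 12 of the 45598 probes on the array, among 16678 genes named, and all 9 entered the 24552 tests of the study. RNA from vessels of 4 male Wistar-Kyoto control rats and 4 male rats of a hypertensive disease model was measured, 1 array per rat. The labels give the strain of the hypertensive rats as Wistar-Kyoto too, although the series title sets that strain against the disease model, so their strain is not settled here. The vessel taken, the age of the rats, the cause of the hypertension and any treatment are not given in the sources used here. The comparison asks how transcripts differ between control and hypertensive vessels. The set was selected on these same signals, with the log2 difference between hypertensive and control vessels already known, so the differences of the 9 genes are given as a description, without a test.

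Chemokines are small secreted proteins that guide white blood cells along a gradient by binding receptors coupled to G proteins. The CXC and CX3C names tell how many residues separate the first cysteines. Cxcl1 and Cxcl2 attract neutrophils through Cxcr2, Cxcl9 and Cxcl10 are induced by interferon and attract activated T cells through Cxcr3, and Cxcl13 draws B cells through Cxcr5. Cxcl12 and Cxcl14 are made by stromal cells without an inflammatory stimulus, and Cxcl12 holds cells that carry Cxcr4. Cxcl16 and Cx3cl1 (fractalkine) are made as membrane proteins, act as adhesion molecules for cells with Cxcr6 and Cx3cr1, and are cut free by the proteases Adam10 and Adam17.

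Levels are log2 processed signal relative to the 75th percentile of the same array, so 1 unit is a doubling. Signals of different probes are not comparable with each other, and each gene is compared only with itself across arrays. That percentile was a signal of 405 to 503 in the controls and 357 to 478 in the hypertensive rats. Smooth muscle and endothelial genes marked the tissue as vessel on all 8 arrays, with Acta2 at 5.97 ± 0.20 (SD, n = 4) in controls and 6.14 ± 0.18 (n = 4) in hypertensive rats, and Pecam1 at 4.22 ± 0.15 and 4.41 ± 0.04. Myh11 was at 7.09 ± 0.20 and 7.17 ± 0.28, and Cdh5 at -0.69 ± 0.13 and -0.68 ± 0.28. The limma fit called 641 tests higher and 470 lower in hypertensive vessels at an adjusted p under 0.05, a split of 422 and 652 with arrays scaled on their median and of 529 and 586 with quantile normalization. Hypertensive replicate 4 stood apart on the second principal component (-44.58, against -12.05 to 24.93 on the other arrays).

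All 12 chemokine probes were well above background on all 8 arrays. Hypertensive vessels gave less signal for Cxcl1 and Cxcl2 and more for Cxcl14, while Cx3cl1 was at nearly the same level in both groups. Of the 9 genes, 2 were among the calls for lower signal and 1 among those for higher, where the shares of all tests called were 1.91% and 2.61% (4.53% in either direction). For 5 of the 9 no control array lay within the range of the hypertensive ones, lower in Cxcl1, Cxcl2 and Cxcl16 and higher in Cxcl12 and Cxcl14. Over all tests such separation was found for 13.6%, with 5.78% lower and 7.84% higher. Since the genes were chosen with this contrast known, nothing is read from these counts. Calls of the 9 genes named below, with all arrays or under alternatives, are likewise a description and no test of them. The median change of the 9 was -0.30, beside 0.04 over all tests.

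Cxcl1, read by 10 spots per array, was at 2.77, 1.59, 3.60 and 2.17 in control replicates 1 to 4. In hypertensive replicates 1 to 4 it was at 0.0088, 0.21, -0.20 and 0.22. Every control array lay above every hypertensive array, by at least 1.37 units, and the spread lay almost wholly among the controls, with an SD of 0.86 (n = 4) against 0.20 (n = 4). The 10 spots of 1 array had an SD of 0.04 to 0.08 within arrays, beside a range of 2.01 units among the control rats. In 138 of the 24552 tests (0.56%) the control SD was larger, and the median control SD was 0.15. The group means were 2.53 and 0.06, a change of -2.47 ± 0.37 (SE of the limma fit), or a signal 5.55-fold lower in hypertensive vessels. Of all tests, 30 had a larger fall. Without control replicate 3, the highest, the change was -2.12.

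Cxcl2, read by 1 spot, was at 2.03, 0.54, 2.90 and 1.53 in the controls and at 0.01, -0.78, -1.49 and -1.02 in the hypertensive rats, again in order of replicate. The groups did not overlap, with a gap of 0.52 units between control replicate 2 and hypertensive replicate 1. Control means and SDs were 1.75 ± 0.99 (n = 4), and hypertensive ones -0.82 ± 0.63 (n = 4). The change was -2.57 ± 0.49, or 5.94-fold lower. The 4 control rats stood in the same order for Cxcl1 and Cxcl2, replicate 3 highest, then 1, 4 and 2. Cxcl2 was no longer called without control replicate 1 (-2.48), hypertensive replicate 2 (-2.58) or hypertensive replicate 3 (-2.35), though the size of the change stayed close to that with all arrays.

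**Figure D1:**
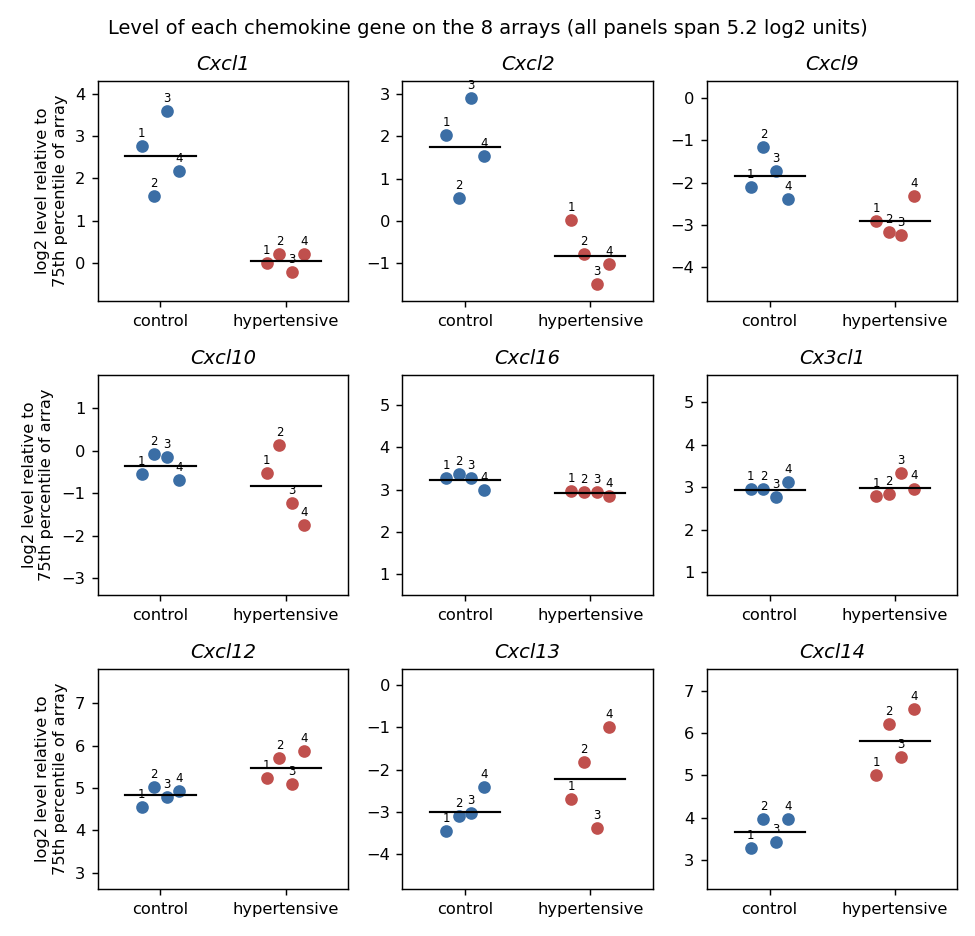
Level of each of the 9 chemokine genes on every array, as log2 signal relative to the 75th percentile of the array, with controls in blue, hypertensive rats in red, the replicate number above each point and the group mean as a line. All panels have the same height in log2 units: controls scatter over 2.01 units for Cxcl1 and 2.36 for Cxcl2 above all hypertensive arrays, and Cxcl14 shows the opposite order of groups.

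Cxcl1 and Cxcl2 lie on chromosome 14, and their promoters are shown because the genes differed together between groups and among the control rats. Each sequence is the 250 bases before the transcription start in RefSeq (build GRCr8, minus strand), with capitals marking GGG, any 3 bases and then TTCC, on either strand. These are letters of the kind bound by NF-kB, the transcription factor that switches on inflammatory chemokine genes. The coordinates are chr14:17479322-17479571 and chr14:17467256-17467505.
Cxcl1: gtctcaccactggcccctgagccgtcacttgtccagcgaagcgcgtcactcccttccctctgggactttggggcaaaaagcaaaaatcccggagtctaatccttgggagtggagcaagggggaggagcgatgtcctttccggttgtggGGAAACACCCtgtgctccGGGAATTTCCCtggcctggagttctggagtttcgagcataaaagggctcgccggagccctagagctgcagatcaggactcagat
Cxcl2: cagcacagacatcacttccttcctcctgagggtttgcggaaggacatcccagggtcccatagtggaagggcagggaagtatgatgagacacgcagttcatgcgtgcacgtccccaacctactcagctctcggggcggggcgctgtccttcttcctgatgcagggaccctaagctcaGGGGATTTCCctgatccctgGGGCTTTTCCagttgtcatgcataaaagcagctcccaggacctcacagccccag
In Cxcl1 the match GGGAATTTCC ran from 84 to 75 bases before the start, overlapping a match on the other strand, and a further match on the other strand began 102 bases before the start. In Cxcl2 the matches GGGGATTTCC and GGGCTTTTCC began 74 and 54 bases before the start. Such a match was also found in the Cxcl10 promoter, which makes 3 of the 9 genes, beside 4.53% of the 33469 promoter windows of the same length. A match is a description of the letters, not of binding.

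The interferon-induced pair did not part the groups. Cxcl9 was at -2.10, -1.16, -1.71 and -2.37 in the controls and -2.91, -3.15, -3.24 and -2.31 in the hypertensive rats. Only hypertensive replicate 4 reached into the control range. The change was -1.06 ± 0.28, and the gene was not called with all arrays, while it was called without hypertensive replicate 4 (-1.26) or with array weights (-1.12). With normexp background correction the change was -0.54. Cxcl10 was at -0.54, -0.08, -0.14 and -0.69 in the controls and -0.52, 0.13, -1.22 and -1.74 in the hypertensive rats. The hypertensive rats thus spanned 1.87 units, with replicate 2 above every control and replicates 3 and 4 below every control. The change of Cxcl10 was -0.47 ± 0.36, and it was -0.17 without hypertensive replicate 4, -0.80 without hypertensive replicate 2 and -0.23 with array weights.

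The membrane-bound chemokines differed little. Cxcl16 was at 3.27, 3.37, 3.28 and 3.0 in the controls and 2.97, 2.95, 2.95 and 2.84 in the hypertensive rats. The groups were separated by 0.04 units, and the change was -0.30 ± 0.10, not called except with normexp background correction (-0.37). Cx3cl1, read by 10 spots, was at 2.95, 2.95, 2.77 and 3.11 in the controls and 2.78, 2.84, 3.33 and 2.97 in the hypertensive rats. The groups overlapped, with hypertensive replicate 3 above every control, the change was 0.04 ± 0.13, and its sign turned with median scaling, which gave -0.05.

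Cxcl14 was the 1 gene of the 9 called higher in hypertensive vessels. Its brighter probe, read by 10 spots, gave 3.27, 3.97, 3.41 and 3.97 in the controls and 5.0, 6.21, 5.42 and 6.56 in the hypertensive rats. Every hypertensive array lay above every control by at least 1.03 units. Means were 3.66 ± 0.37 (SD, n = 4) and 5.80 ± 0.71 (n = 4), a change of 2.14 ± 0.34, or 4.41-fold higher, and 47 of all tests had a larger rise. The second probe for Cxcl14, a different oligonucleotide read by 1 spot, gave a change of 2.25 ± 0.36 and the same order of arrays within the hypertensive group. Over the 18 alternative settings the change ranged from 1.89 (without hypertensive replicate 4) to 2.41 (without hypertensive replicate 1).

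The Cxcl14 promoter is shown beside those of the 2 genes that were lower. It held no match to the NF-kB letters and 1 match to TGANTCA, the letters of AP-1 sites. These letters were found on either strand in 6.34% of promoter windows and, among the 9 genes, also in Cxcl10. The 250 bases before the start, chr17:8322900-8323149 on the plus strand of GRCr8, have that match in capitals, beginning 99 bases before the start.
Cxcl14: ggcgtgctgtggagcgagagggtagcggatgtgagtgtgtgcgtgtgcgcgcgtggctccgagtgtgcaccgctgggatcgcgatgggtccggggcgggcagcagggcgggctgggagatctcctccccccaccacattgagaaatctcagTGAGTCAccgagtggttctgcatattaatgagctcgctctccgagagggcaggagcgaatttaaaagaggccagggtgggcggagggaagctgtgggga
No match in this window says only that these letters are not in it.

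Cxcl12 was read by 3 probes for 2 transcript records. The brightest gave 4.56, 5.02, 4.80 and 4.92 in the controls and 5.24, 5.70, 5.11 and 5.88 in the hypertensive rats. The groups were 0.08 units apart, the change was 0.66 ± 0.18, and it was called only with normexp background correction (0.69). The probes for the other transcript record changed by 0.26 ± 0.09, with no overlap of groups, and by 0.22 ± 0.19, with overlap. All 3 thus had the same sign and differed in size, and the mean over them changed by 0.38. Cxcl13 was at -3.44, -3.10, -3.01 and -2.40 in the controls and -2.69, -1.81, -3.39 and -0.99 in the hypertensive rats. The groups overlapped and the hypertensive rats spanned 2.40 units, with a change of 0.77 ± 0.47. The change of Cxcl13 was 0.36 without hypertensive replicate 4, 1.16 without hypertensive replicate 3 and 0.52 with normexp background correction. Its processed signal ran from 37 in hypertensive replicate 3 to 241 in hypertensive replicate 4.

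**Figure D2:**
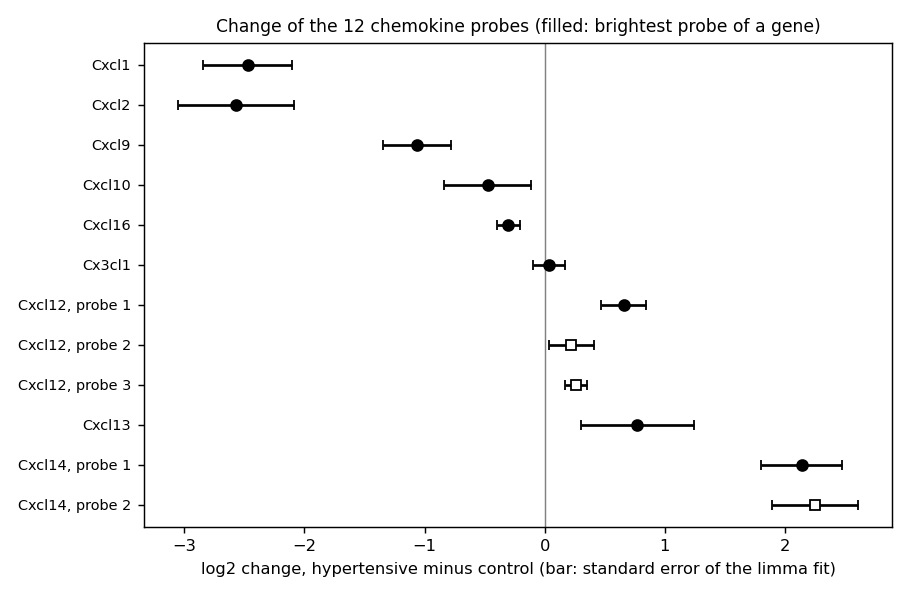
Change of each of the 12 chemokine probes, hypertensive minus control on the log2 scale, with the standard error of the limma fit as a bar. Filled circles are the brightest probe of each gene and open squares its other probes. Cxcl1 (-2.47) and Cxcl2 (-2.57) lie far to the left, both Cxcl14 probes (2.14 and 2.25) far to the right, and Cx3cl1 (0.04) at zero.

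Within groups, the highest correlations among the 9 genes lay between Cxcl1 and Cxcl2 and among Cxcl12, Cxcl13 and Cxcl14. Deviations from the group means over the 8 arrays had a Pearson correlation of 0.85 between Cxcl1 and Cxcl2. This value rests mostly on the controls. In hypertensive replicates 1 to 4 the deviations were -0.05, 0.15, -0.26 and 0.16 for Cxcl1. For Cxcl2 they were 0.83, 0.04, -0.67 and -0.20. The deviations of Cxcl12, Cxcl13 and Cxcl14 over the 8 arrays had correlations of 0.91 (Cxcl12 with Cxcl13), 0.92 (Cxcl12 with Cxcl14) and 0.83 (Cxcl13 with Cxcl14). Between Cxcl14 and Cxcl2 the value was -0.49, and between Cxcl14 and Cxcl1 -0.21. The other pairs ranged from -0.65 (Cx3cl1 with Cxcl2) to 0.54 (Cxcl9 with Cxcl12). Hypertensive replicates 2 and 4 were above their group mean for all of Cxcl12, Cxcl13 and Cxcl14, and replicates 1 and 3 below it. These correlations rest on 8 arrays that share scaling and are given as a description. The mean over 8 adipocyte markers was 0.08, -0.72, -0.11 and 2.24 in hypertensive replicates 1 to 4, and -0.50 to 0.60 in the controls. The part of fat cells in the levels of Cxcl12, Cxcl13 and Cxcl14 was not tested.

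**Figure D3:**
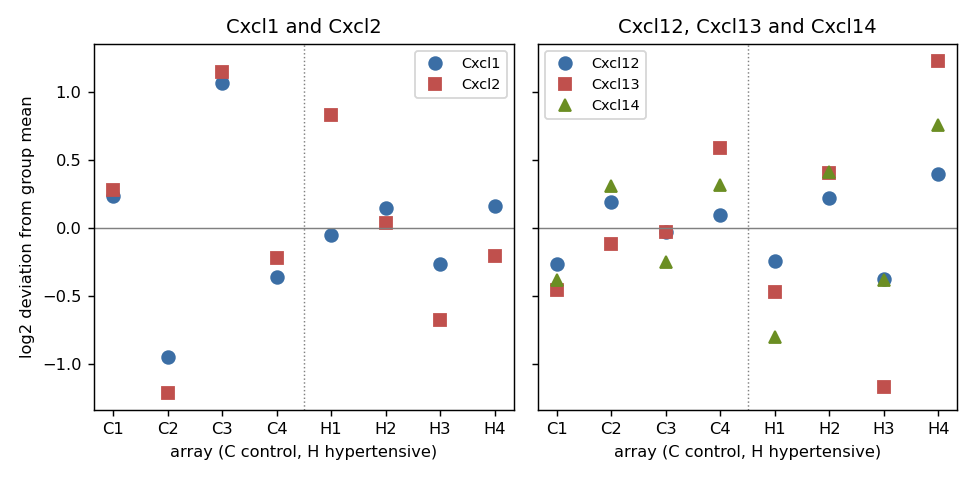
Deviation of each array from its group mean on the log2 scale, for Cxcl1 and Cxcl2 (left) and for Cxcl12, Cxcl13 and Cxcl14 (right), with control arrays C1 to C4 and hypertensive arrays H1 to H4. Cxcl1 and Cxcl2 move together in the controls, highest in C3 and lowest in C2, and Cxcl12, Cxcl13 and Cxcl14 are above zero in H2 and H4 and below it in H1 and H3.

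Among 11177 named genes detected on all 8 arrays, Cebpb had the deviations most like those of Cxcl1 (r = 0.96 over 8 arrays), followed by Tuft1 (0.95) and Dot1l (0.94). Cebpb, a transcription factor of inflammatory and fat cell genes, changed by -0.52 ± 0.14 between groups (limma adjusted p = 0.078), and Tuft1 by 2.72 ± 0.16, in the direction opposite to Cxcl1. For Cxcl2 the closest were Msmo1, Or8b46c and Fbxo46 (0.96, 0.95 and 0.95), for Cxcl14 Mospd3, Cd38 and Slc4a4 (0.97, 0.96 and 0.96), and for Cxcl12 Crlf2, Pdlim2 and Limd2 (each 0.98). For Cxcl9 they were Lamtor1, the macrophage gene Cd68 and the matrix gene Dcn (0.98, 0.97 and 0.97), for Cxcl10 Zfp521, Dlg2 and Socs2 (0.98, 0.95 and 0.95), and for Cxcl13 Hbe1, Mfng and Tmem176a (each 0.96). For Cxcl16 they were Meox2, Ms4a15 and Mapk9 (0.96, 0.94 and 0.94), and for Cx3cl1 Tm4sf4, Spag6l and Trub1 (0.99, 0.95 and 0.95). Each value is among the highest of 11177 correlations over 8 arrays, and such a choice alone can give high values. Those for Cxcl1 rest mostly on the controls, where its SD was 0.86 against 0.20 in the hypertensive rats. None of these correlations was tested, and they are given as a description.

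The receptors of these chemokines gave no call. Of 6 tested, none was past the threshold in the limma fit, 1 had an unadjusted p under 0.05, and the median change was -0.12. The share of all tests at an unadjusted p under 0.05 is not given here. Such counts, in this list and those below, are therefore not read as an excess. The neutrophil receptor genes Cxcr1 and Cxcr2 stayed at background in all controls, and Cxcr2 was well above it on 2 hypertensive arrays only. Cxcr6, the receptor of Cxcl16, was at -0.43, -0.51, -0.72 and -0.67 in the controls and -1.51, -1.49, -1.90 and -0.70 in the hypertensive rats. Its change was -0.82 ± 0.22 (limma adjusted p = 0.080), and it was past the threshold without hypertensive replicate 4, the array that lay in the control range, at -1.05. Cx3cr1, the receptor of Cx3cl1 on monocytes, changed by 0.36 ± 0.20 (limma adjusted p = 0.35). Of the Cxcl12 receptors, Cxcr4 changed by -0.35 ± 0.29 and the scavenger receptor Ackr3 by -0.16 ± 0.13, and Cxcr3 changed by -0.08 ± 0.34 and Cxcr5 by 0.09 ± 0.12.

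Of the other CXC and XC ligands, 3 of 7 were tested and none was past the threshold, with 1 at an unadjusted p under 0.05. That was Pf4, platelet factor 4, at -0.44 ± 0.11 (limma adjusted p = 0.056), which passed with normexp background correction, quantile normalization and array weights. Xcl1 changed by 0.69 ± 0.42 (0.31 without hypertensive replicate 4) and Cxcl17 by -0.01 ± 0.24. Cxcl6 and Cxcl11 were not well above background on any array, and Ppbp was on 2 control arrays and 1 hypertensive array. Cxcl3 was matched to no probe.

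Genes that cut, trim or display chemokines showed 1 call among 10 tested (4.53% of all tests were called), with a median change of -0.03. It was Ext2, which builds the heparan sulfate chains that hold chemokines on the cell surface, at -0.35 ± 0.08 (limma adjusted p = 0.043). Leaving out hypertensive replicate 4 kept this call and leaving out any other array ended it. Dpp4, a peptidase that clips the start of Cxcl12 and Cxcl10, changed by -0.83 ± 0.29 (limma adjusted p = 0.16), and it was past the threshold without hypertensive replicate 4 (-1.08). The shedding proteases changed by 0.09 ± 0.17 (Adam10) and -0.01 ± 0.13 (Adam17).

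Of 15 tested genes for NF-kB subunits, their inducers and their brakes, 2 fell and none rose, with a median change of -0.14. Of the 15 changes 13 were below zero. Over all tests, 1.91% were called lower and 42.3% had a change below zero. Il1b, the cytokine that induces Cxcl1 and Cxcl2 in many cells, was at 2.06, 1.46, 2.39 and 1.95 in the controls and 0.64, 0.41, 0.19 and 0.65 in the hypertensive rats. The groups did not overlap, and control replicate 3 was highest and control replicate 2 lowest, as for Cxcl1. Its change was -1.49 ± 0.20 (limma adjusted p = 0.0038). Zfp36, an RNA-binding protein that hastens the decay of chemokine transcripts, changed by -1.30 ± 0.24 (limma adjusted p = 0.020). Leaving out control replicate 1, hypertensive replicate 1 or hypertensive replicate 3 ended this call and left 1 in the list. Rela, Nfkb1 and Nfkbia changed by -0.07 ± 0.09, -0.03 ± 0.12 and -0.28 ± 0.14, and Tnf by -0.97 ± 0.30 (limma adjusted p = 0.11). The part of Il1b and of NF-kB in the levels of Cxcl1 and Cxcl2 was not tested.

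None of 21 genes of the interferon gamma response was past the threshold in the limma fit, with a median change of -0.03 and 3 at an unadjusted p under 0.05, all of them higher. Irf8 changed by 0.62 ± 0.17 and the immunoproteasome gene Psmb8 by 0.48 ± 0.13 (limma adjusted p = 0.076 and 0.082). Psmb8 was past the threshold without control replicate 2 (0.59). Irf1, a transcription factor induced by interferon, changed by -0.09 ± 0.10, while the change of Cxcl9 was -1.06 ± 0.28.

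Chemokines of the CC class, which mainly draw monocytes, eosinophils and lymphocytes, were measured on the same arrays. Of 15 tested, 3 fell and none rose, with a median change of -0.59, where 1.91% of all tests were called lower. Ccl7 changed by -1.36 ± 0.18, Ccl2 by -1.19 ± 0.24 and Ccl24 by -0.93 ± 0.11 (limma adjusted p = 0.0040, 0.030 and 0.0020). Ccl2 fell short of the threshold when control replicate 1 or 2, or any hypertensive array, was left out. Changes above zero were found too, as for Ccl11 at 1.82 ± 0.58 and Ccl5 at 1.18 ± 0.39 (limma adjusted p = 0.12 and 0.13), as Cxcl14 was higher among the CXC genes. The difference between the classes was not tested.

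The early response genes, also called immediate early genes, are induced rapidly by many stimuli. Of 23 tested, 13 fell and none rose, where 1.91% of all tests were called lower. The median change was -0.92, and 2 changes lay above zero, Fosl2 at 0.28 and Maff at 0.11. The list mean, by replicate, was 2.62, 2.27, 3.07 and 2.27 for the controls and 1.72, 1.68, 1.24 and 1.22 for the hypertensive rats. Control replicates 3 and 1 were highest, as for Cxcl1 and Cxcl2, while replicates 2 and 4 were level. Dusp1 changed by -1.83 ± 0.21, Fos by -1.81 ± 0.29, Jun by -1.19 ± 0.19 and Klf4 by -0.77 ± 0.13 (limma adjusted p = 0.0020, 0.0094, 0.0095 and 0.014). Leaving out control replicate 1 brought the count to 4, and leaving out control replicate 3 or hypertensive replicate 3 brought it to 6. The part of these genes in the levels of the chemokines was not tested.

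Markers of the cells that make or answer chemokines were compared on the same arrays, and in a whole vessel fewer cells of a type and less RNA per cell cannot be told apart. Of 12 neutrophil markers 5 were tested and none passed in the limma fit, with 2 at an unadjusted p under 0.05. The neutrophil list mean ranged from -1.80 to -1.55 in the controls and from -2.43 to -1.41 in the hypertensive rats. Ngp, Csf3r, Ltf and Padi4 were not well above background on any array, Camp was on 1 array of each group and S100a8 on 1 hypertensive array. S100a9 and Retnlg were above background on 4 control and 3 hypertensive arrays each, and Lcn2, Itgam and Fcnb on all 8. Fcnb changed by -0.52 ± 0.17 and Lcn2 by 0.28 ± 0.10 (limma adjusted p = 0.13 and 0.17), and without hypertensive replicate 4 Fcnb was past the threshold at -0.69.

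Of 14 macrophage and monocyte markers 1 fell, where 1.91% of all tests were called lower. It was the mannose receptor gene Mrc1, at -0.51 ± 0.12 (limma adjusted p = 0.0496). This call ended with normexp background correction (-0.25) and when any array other than hypertensive replicate 4 was left out. Csf1r changed by -0.49 ± 0.12 and was past the threshold in 5 of the 18 alternative settings. Without hypertensive replicate 4, 5 of the 14 markers were called lower, and 3 were with array weights or median scaling. With normexp background correction 2 were called lower and 1 higher, and without hypertensive replicate 3 the only call, 1, was higher. In the limma fit with all arrays 5 had an unadjusted p under 0.05, 4 lower and 1 higher. The higher one was Lyz2 at 0.53 ± 0.14 (limma adjusted p = 0.080). The list mean was 1.64 to 1.84 in the controls and 1.36 to 1.86 in the hypertensive rats. Of 13 T and B cell markers none passed in the limma fit and 5 had an unadjusted p under 0.05, all lower, with Cd3d at -0.74 ± 0.18 and Il7r at -0.66 ± 0.18 (limma adjusted p = 0.053 and 0.080). Without hypertensive replicate 4, 5 of the 13 were called lower, Cd3d among them, and 3 were with array weights or with normexp background correction. The T and B cell list mean was -1.43 to -1.04 in the controls, and -1.88, -1.71 and -1.68 in hypertensive replicates 3, 1 and 2 but -0.89 in replicate 4. Replicate 4 was also the highest hypertensive array for Cxcr6 and Cxcl9. The part of these cells in the levels of Cxcl9 and Cxcr6 was not tested.

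None of the markers of the wall itself passed in the limma fit, out of 10 for smooth muscle, 9 for endothelium and 11 for fibroblasts and pericytes, with 1, 3 and 1 at an unadjusted p under 0.05. Lmod1 changed by 0.63 ± 0.17, Vwf by 0.46 ± 0.17, Cldn5 by -0.43 ± 0.11, Lum by -0.45 ± 0.13 (past the threshold at -0.54 without hypertensive replicate 4) and Col1a1 by -0.95 ± 0.45. The fibroblast and pericyte list mean was 4.24 to 4.53 in the controls and 3.95 to 4.45 in the hypertensive rats. None of 9 mast cell markers passed in the limma fit, although 7 had an unadjusted p under 0.05, all higher, with Cma1 at 0.82 ± 0.24 and Tpsab1 at 0.83 ± 0.26. Without the share of all tests at that level, this count is not read as an excess. The mast cell list mean was -1.75 to -1.11 in the controls and -1.15 to -0.37 in the hypertensive rats. None of 7 nerve and Schwann cell markers passed in the limma fit, with S100b at 0.99 ± 0.29 and Sox10 at 0.49 ± 0.13 among 2 at an unadjusted p under 0.05, and the list mean was -0.64 to -0.14 in the controls and -0.17 to 0.09 in the hypertensive rats. None of 8 adipocyte markers passed in the limma fit, with 0 at an unadjusted p under 0.05, Fabp4 at 0.93 ± 0.49 and Dgat2 at 0.73 ± 0.50. Without hypertensive replicate 4 these were 0.41 and 0.22, and the list's median was -0.37 in place of 0.33. Of 4 erythroid markers Epb42 rose (0.74 ± 0.12), where 2.61% of all tests were called higher. Alas2 changed by -0.80 ± 0.34, a change that was past the threshold without hypertensive replicate 4 (-1.16). The part of fibroblasts, pericytes, mast, nerve and fat cells in the levels of Cxcl12 and Cxcl14 was not tested.

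**Figure D4:**
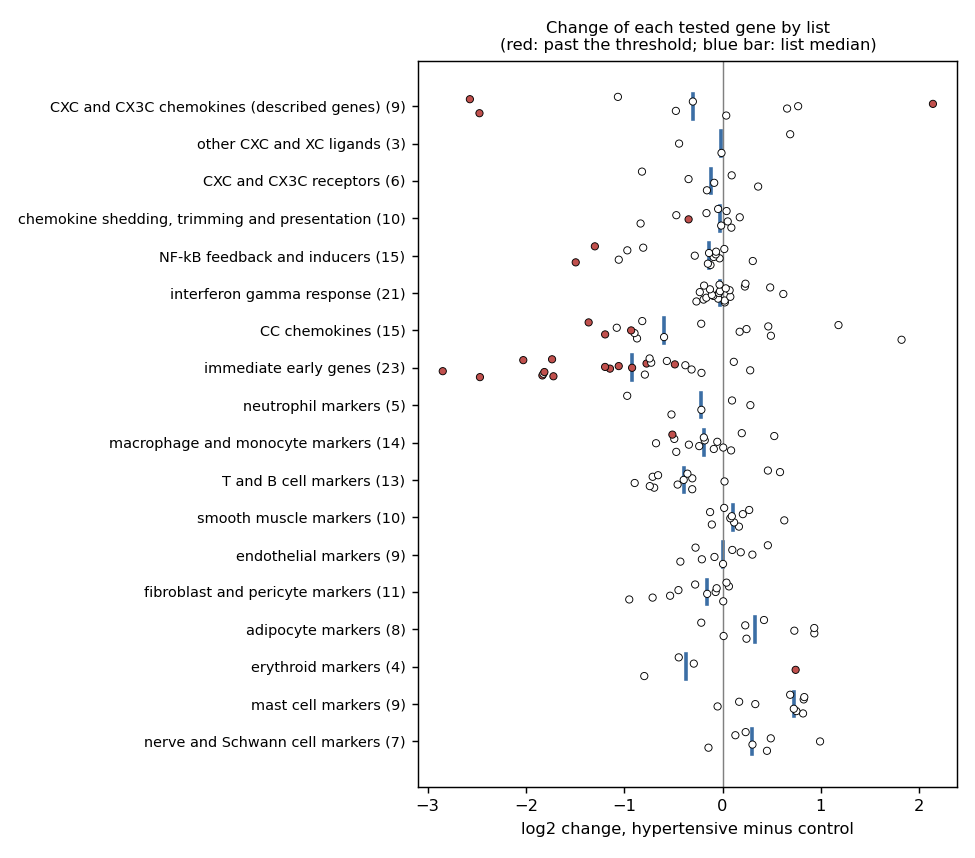
Change of every tested gene in the 9 described chemokine genes, in the pathway lists and in the cell type markers, hypertensive minus control on the log2 scale. Red points were past the threshold, the blue bar is the list's median and the number of tested genes stands in brackets. Cxcl1, Cxcl2 and Cxcl14 are the 3 red points of the top line, marked as a description since these genes were chosen with the contrast known. The medians furthest from zero are those of the immediate early genes (-0.92), the mast cell markers (0.72) and the CC chemokines (-0.59).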

How the data were processed

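Total RNA, taken with Trizol per the labels' protocols, was labelled with Cy3 and hybridised to a 1-colour Agilent rat array. The deposited scanner files hold intensity values, already background-subtracted and detrended per the file headers by Agilent Feature Extraction 10.7.1.1 (12.1.1.1 per the submitters' processing notes). All 8 arrays lie on 1 slide, the controls in its first row and the hypertensive rats in its second, per the file headers, so the row and the group cannot be told apart. Spot flags in the same files, per the file headers, mark outliers and spots well above background. The deposited value table holds a ratio, equal to the processed intensity over a constant near the array's 75th percentile, and its origin is otherwise not given in the sources used here. Scale and direction were found by setting its columns, with medians of 0.086 to 0.10, against the scanner values.

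Spots marked as outliers, 213 to 396 per array, were dropped if the probe had a further spot. Log2 signals were averaged per probe and the array's 75th percentile was subtracted. Of 45598 probes, 27822 were kept, being above background on at least 3 of 4 arrays of a group (on 50% or more of their spots). No gene spot was saturated. Precision is limited by the number of arrays. Symbols came from RefSeq records (GRCr8) matched on accession without version, for 21229 probes (46.6%). The brightest kept probe stood for its gene, which gave 11965 named genes and 12587 unnamed probes.

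Groups were compared with limma 3.58.1 in R 4.3.3 (lmFit with a group term, then eBayes), with Benjamini-Hochberg adjustment over all 24552 tests and a threshold of 0.05. The procedure was tested on simulated data. Changes are hypertensive minus control, and ± after a change is its standard error. Lists are described by counts and medians. The members and lists were chosen with earlier results of these data known. Named are all 9 chemokine genes, up to 4 called genes with the smallest p per list, or the 2 smallest where fewer than 2 passed, and the 3 genes most like each chemokine. Other genes named (such as Cxcr4, Adam10 or Rela) were chosen for their role after their values were seen. Beyond sex, strain and disease model, the labels say of the rats only that they were 4 per group. The p-values thus set the difference between groups against the spread among these samples within groups.

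Alternatives were normexp background correction (offset 50, on spot medians in place of the spot means written in the plan), median and quantile scaling, 2 other detection filters, outlier spots kept, the mean of probes, the value table, array weights, the replicate number as a block and each array left out. Replicate numbers were not taken to pair the rats.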

Additional observations from a re-analysis of the deposited data

Results flagged for a closer look

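Of 18 groups of 4 arrays examined, 2 for each chemokine gene, 1 held an array far from the other 3. In the hypertensive rats, Cxcl16 was at 2.84 in replicate 4 and at 2.95 to 2.97 in the other 3, so that the gap made up 0.89 of the range. The whole range was 0.12 log2 units, smaller than that of the controls (0.37). About 1 in 20 such groups is expected by chance.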

How the results depend on the processing

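The number of tests past the threshold, 1111, was 1857 with normexp background correction, 641 without a detection filter and 629 to 1473 with 1 array left out. The number of chemokine genes past it, 3, was 5 with normexp background correction (Cxcl12 and Cxcl16 added) and 2 to 4 with 1 array left out. Other CXC and XC ligands had 1 in place of 0 with normexp, quantile normalization and array weights. Receptors had 1 in place of 0 with normexp and array weights, and 0 to 1 with 1 array left out. The shedding, trimming and presentation genes had 0 in place of 1 without a detection filter, and 0 to 2 with 1 array left out. The NF-kB list (2) had 1 to 3 with 1 array left out. The interferon gamma list had 2 in place of 0 with normexp, and 0 to 1 with 1 array left out. The CC chemokines (3) had 5 with normexp and 5 with array weights. The immediate early genes (13) had 6 without a detection filter and 4 to 12 with 1 array left out. The cause of these differences was not tested. Of the changes of named genes under alternatives, 751 kept their direction or stayed short of the threshold, 36 lost and 40 gained a call, and 0 called changes turned sign.

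Same-numbered rats of the 2 groups deviated with correlations of 0.21, 0.12, -0.0035 and -0.15, so the numbers were not taken to pair them. With the replicate number as a block, 675 tests were past the threshold, 2 chemokine genes (Cxcl2 lost), 0 shedding, trimming and presentation genes, 1 of the NF-kB list and 3 immediate early genes. A slide block could not be fitted, since all arrays share 1 slide.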
